A study of Mus musculus with 13 samples.

Results

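Interferon-stimulated genes were followed across the cell populations of the mouse liver. The list held 33 genes known to be induced by interferons, chosen by symbol with earlier results of these data known. Of these, 30 had a probe set with a single gene symbol and were measured, out of 19537 genes so measured on the arrays. Isg15 and Gbp2 were read here through probe sets that also carried a second symbol and were left out, and Ifi44 was not analysed here. Each gene is represented by the probe set with the highest mean. Irf1 was the 1 member with more than 1 such probe set, and its other one was dim and nearly flat, at 191 to 309 over the 13 arrays.

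The groups were freshly sorted Kupffer cells (3 arrays), liver sinusoidal endothelial cells (LSEC, 3 arrays) and hepatocytes (3 arrays), and hepatic stellate cells (HSC) grown in DMEM with serum, with 2 arrays at day 1, 1 array at day 7 and 1 array at day 14. Kupffer cells are the resident macrophages, LSEC line the sinusoids, hepatocytes are the parenchymal cells, and HSC store retinoids and turn into myofibroblasts in culture. All cells came from naive C57BL/6 mice aged 6 to 10 weeks, with no interferon, infection or other treatment named. Every HSC array was of cultured cells, so that population and culture cannot be told apart for them. The titles call the repeated arrays biological replicates without saying whether they came from separate animals or pools, and the p-values measure the spread between these arrays.

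Interferons act through cell surface receptors and the kinases JAK1 and TYK2, which phosphorylate STAT proteins. A complex that holds STAT2 and IRF9 then binds the interferon-stimulated response element in the promoters of target genes. The products of these genes sense viral RNA, block its translation, degrade it, or tune the signal itself. In liver, Kupffer cells and LSEC meet microbial products carried by portal blood.

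As sums, marker genes followed the labels, though not every marker did so singly. The log2 difference of Kupffer cells minus 1-day HSC was -0.31 for the HSC marker Lrat (limma adjusted p = 0.11). Kupffer cells minus LSEC was -0.79 for the LSEC marker Clec4g (limma adjusted p = 0.063). The 10 Kupffer cell markers summed to between 78597 and 81482 on the Kupffer cell arrays and to at most 6979 on any other. The 10 LSEC markers summed to between 47229.8 and 66089 in LSEC, the 10 hepatocyte markers to between 117016 and 124622 in hepatocytes, and the 10 HSC markers to 31242 and 34214 in 1-day HSC. Other cells' markers were also read on some arrays. On the 1-day HSC arrays hepatocyte markers summed to 17115 and 10066, with 7 of 10 above the median intensity of all probe sets on both arrays, against 1185 at day 7 and 1168 at day 14. LSEC markers summed there to 12085 and 11327, with 10 of 10 above that median, against 2002 at day 7 and 2404 at day 14. Kupffer cell markers summed there to 4288 and 5750, with 5 of 10 above that median, against 3039 at day 7 and 3847 at day 14. They summed to between 4113 and 5664 in LSEC (2 of 10 above the median) and 6132 and 6979 in hepatocytes (1 of 10). On the Kupffer cell arrays LSEC markers summed to between 14204 and 16625 (7 of 10 above the median) and hepatocyte markers to between 2334 and 5686 (2 of 10). Cdh5 alone made up most of that LSEC marker sum, at a mean of 9635 in Kupffer cells. The 7 measured B and plasma cell markers summed to between 2157 and 3670.1 in Kupffer cells, with 2 above the median on every array, and to between 682 and 861 on the other 10 arrays. The 7 measured monocyte and neutrophil markers summed to between 2064 and 2145 in Kupffer cells, with 1 above the median, and to between 615 and 772 elsewhere. The 9 measured T and NK cell markers summed to between 912 and 1122 in Kupffer cells and between 767 and 954 elsewhere. The 9 measured dendritic cell markers summed to between 5244 and 6296 in Kupffer cells, 5987 and 8405 in LSEC, 1345 and 1561 in hepatocytes and 2489 and 3218 in HSC. The part of these cells in the levels below was not tested. Siglech, which marks plasmacytoid dendritic cells, read 155, 169 and 157 in Kupffer cells and 109 to 155 on the other 10 arrays, all under the median of 224.5. Other dendritic cell markers did not follow it. Of the 9, 3 were above that median on every Kupffer cell array and 3 on every LSEC array. The log2 difference of Kupffer cells minus LSEC was 1.96 for Clec9a and -1.95 for Tcf4. In bulk arrays fewer cells of a type and less RNA per cell cannot be told apart.

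The core of the response element was searched as TTTC, any 2 bases and TTTC, which on the other strand reads GAAA, any 2 bases and GAAA, in the RefSeq promoters of build GRCm38.p6 (250 bases before to 50 after each annotated start). Both strands were read, and overlapping matches were kept. Of the 33 listed genes, 25 had a promoter sequence, and 13 of these, or 52.0%, held the core in at least 1 promoter, against 3.99% of all 27025 genes. The windows below show it, in capitals, for genes whose levels differed in pattern between populations, from high in Kupffer cells (Gbp3) to high in all fresh populations (Rsad2). Each runs 5′ to 3′ on the strand of the gene and ends before its start.
Oas3, chr5:120777700-120777759, minus strand: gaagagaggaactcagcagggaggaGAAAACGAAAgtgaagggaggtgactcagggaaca
Gbp3, chr3:142559974-142560039, plus strand: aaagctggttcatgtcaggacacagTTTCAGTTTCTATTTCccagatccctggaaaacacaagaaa
Ifit3, chr19:34583348-34583441, plus strand: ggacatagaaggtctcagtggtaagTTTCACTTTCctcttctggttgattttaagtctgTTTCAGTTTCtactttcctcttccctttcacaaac
Ifit1, chr19:34640760-34640838, plus strand: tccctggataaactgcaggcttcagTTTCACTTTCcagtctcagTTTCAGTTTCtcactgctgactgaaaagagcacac
Oas1a, chr5:120907526-120907570, minus strand: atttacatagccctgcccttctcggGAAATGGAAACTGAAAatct
Rsad2, chr12:26456538-26456597, minus strand: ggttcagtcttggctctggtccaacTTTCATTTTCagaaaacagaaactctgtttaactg
Bst2, chr8:71537562-71537627, minus strand: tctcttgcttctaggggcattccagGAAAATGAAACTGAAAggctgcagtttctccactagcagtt
Stat2, chr10:128270251-128270310, plus strand: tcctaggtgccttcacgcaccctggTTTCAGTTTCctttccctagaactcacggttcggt
Ifit1 and Ifit3 each hold a pair of separate cores, whereas in Gbp3, Oas1a and Bst2 a pair overlaps. Among the genes called higher in Kupffer cells, 6 had a promoter sequence and 2 of them held the core. No promoter sequence is shown for Oas2, Parp9, Dhx58, Usp18, Parp14, Mx2, Mx1 or Zbp1. A match is a stretch of letters and was not tested as a binding site.

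The first question was which liver population held these transcripts. Kupffer cells stood highest for most of them. The mean was highest in Kupffer cells for 23 of 30 members, in LSEC for 5, in hepatocytes for 2 and in 1-day HSC for none, while over all 12081 genes tested Kupffer cells were highest for 25.4%. The mean was lowest in 1-day HSC for 21 members, against 21.5% of all genes. In 18 members every Kupffer cell array lay above the other 8 arrays of the 4 populations, which held for 17.8% of all genes.

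**Figure D1:**
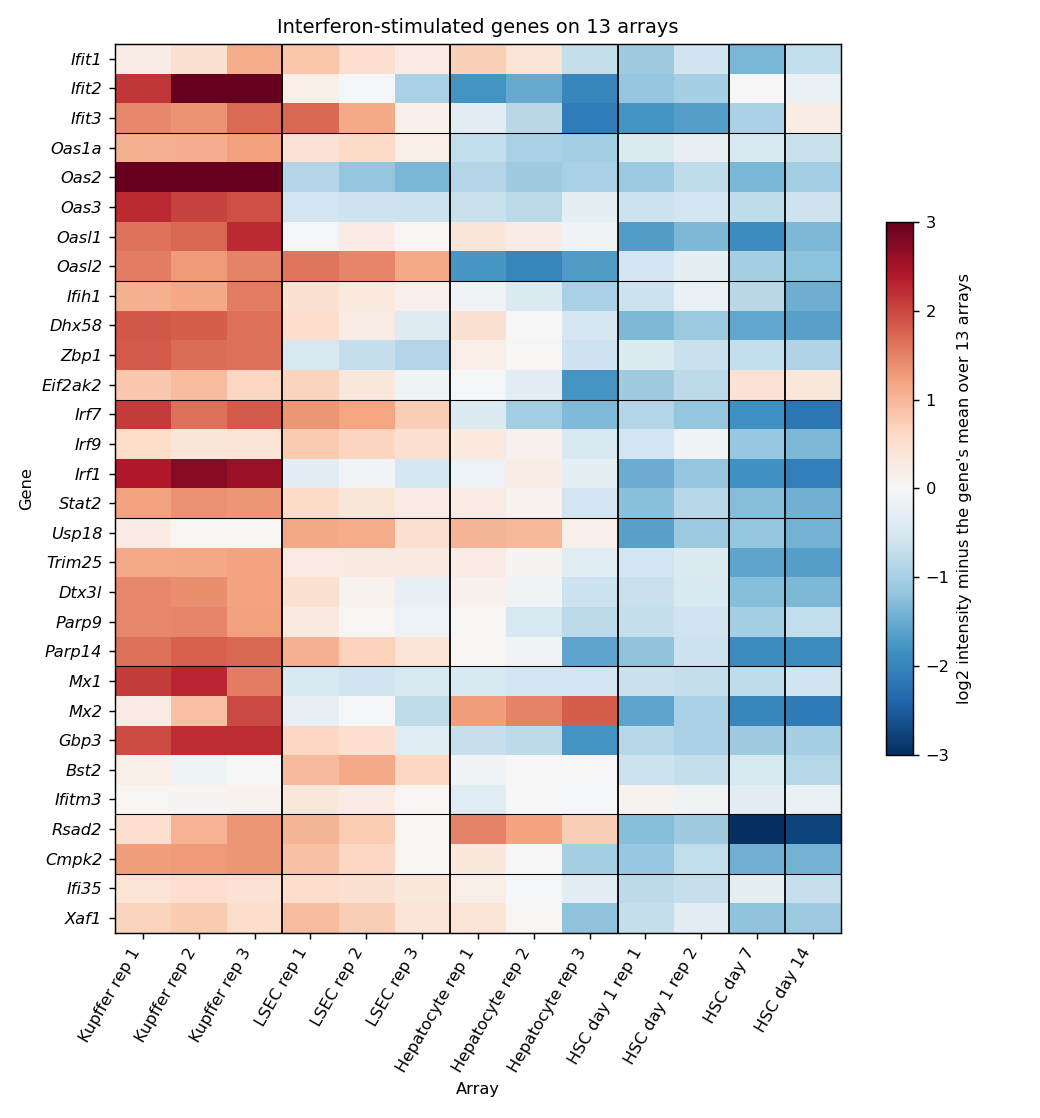
Log2 intensity of the 30 measured members (rows, grouped by role) on the 13 arrays (columns), as the difference from each gene's mean over all arrays; the colour scale is clipped at 3 in either direction. Red dominates the Kupffer cell columns and blue the HSC columns, and the third hepatocyte array is bluer than the other two for most rows.

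The call for a population required, against each of the other 3, a limma adjusted p under 0.05 together with a log2 difference of 1 or more in the same direction. Differences are on the scale of log2(intensity + 82.7), which understates the change of dim genes. By this rule 11 of the 30 members were higher in Kupffer cells, against 6.53% of all genes, and 0 were lower, against 2.28%. In LSEC 0 were higher (2.35% of all genes) and 0 lower (0.406%), in hepatocytes 0 were higher (6.8%) and 1 was lower (2.72%), and in 1-day HSC 0 were higher (2.59%) and 3 were lower (0.281%). At an unadjusted p under 0.05 in limma, with no minimum difference, the counts were 0 lower in Kupffer cells (16.3% of all genes), 1 higher in LSEC, which was Bst2 (12.4%), 0 lower in LSEC (3.81%), 0 higher in hepatocytes (16.6%) and 0 higher in 1-day HSC (12.0%). Intensities below are given with SD over 3 arrays, or 2 for 1-day HSC. All 30 members passed the filter on dim genes, an intensity above 224.5 on at least 2 arrays. Of the 11 called higher in Kupffer cells, Mx1 had no other array of the 4 populations above 224.5, and Oas2 and Oas3 had 1 each. These 3 passed only with their Kupffer cell arrays and had to be higher there, so nothing is read from their calls. They are counted among the 11, among the 23 and 18 members given above, and in the pair counts and medians below.

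**Figure D2:**
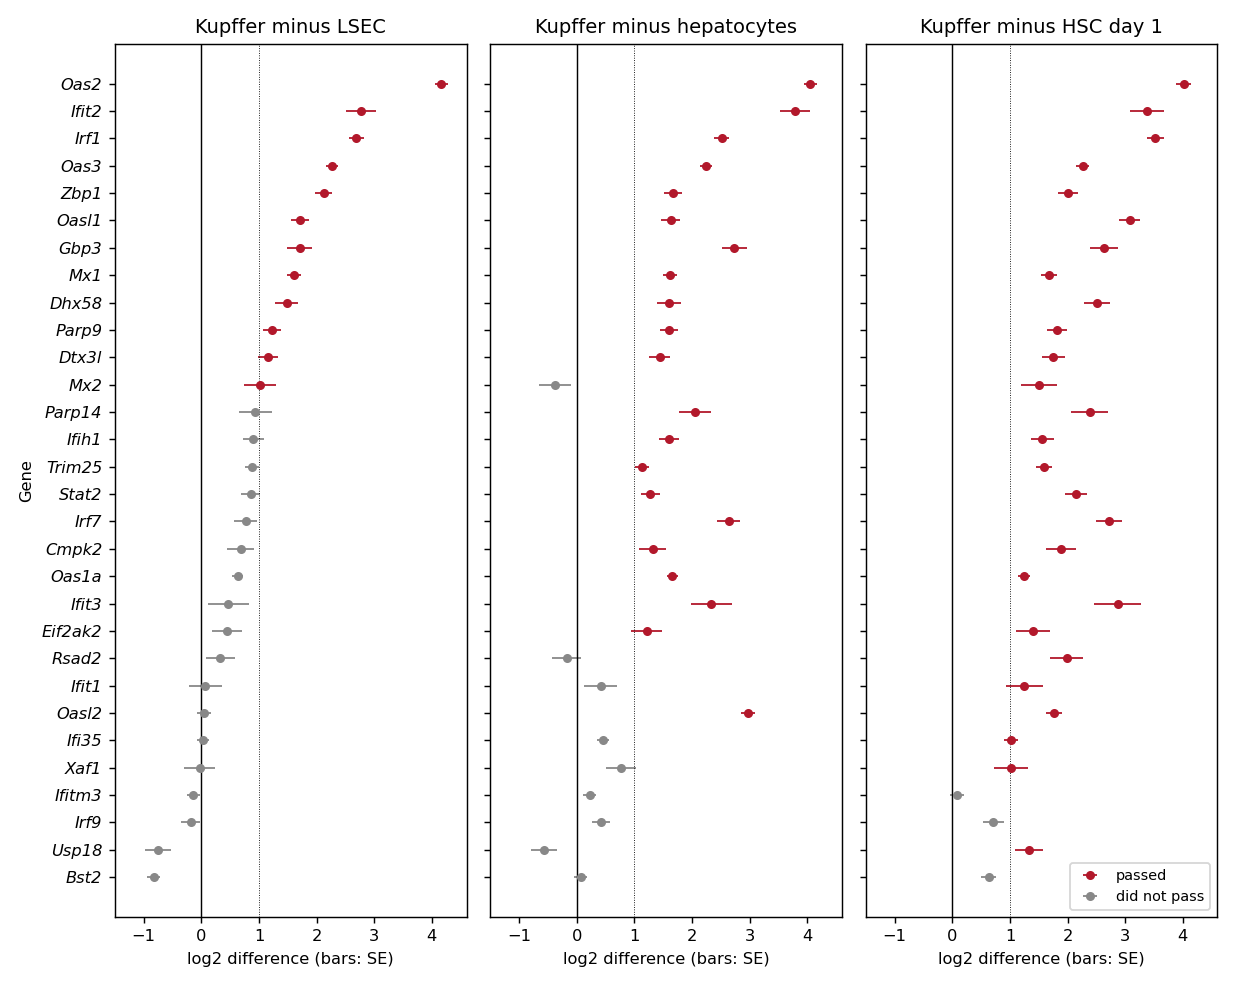
Log2 difference of Kupffer cells from LSEC (left), hepatocytes (middle) and 1-day HSC (right) for each member, with SE; red points passed the test at a minimum difference of 1 (dotted line). Oas2 lies near 4 in all panels, and 27 of 30 members are red against 1-day HSC.

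The sensors of viral nucleic acid were higher in Kupffer cells for 2 of 4 members. Dhx58 (probe set 10391207), which encodes LGP2, a regulator of the RIG-I-like receptors, read 1415, 1367 and 1228 in Kupffer cells, against 561, 454 and 297 in LSEC, 532, 386 and 273 in hepatocytes and 153 and 178 in 1-day HSC, with 132 at day 7 and 125 at day 14. The Kupffer cell arrays did not overlap with any other, and the difference from LSEC, the nearest population, was 1.48 (SE 0.2, adjusted p = 3.3e-05). Zbp1 (probe set 10490150), a sensor of Z-form nucleic acid that can trigger necroptosis, read 1667, 1487 and 1463 in Kupffer cells, 336, 284 and 254 in LSEC, 532, 476 and 302 in hepatocytes and 348 and 293 in 1-day HSC, with 277 at day 7 and 251 at day 14. Its difference from hepatocytes was 1.67 (SE 0.152, adjusted p = 6.8e-07). Ifih1, which encodes the sensor MDA5, averaged 1796 ± 314 in Kupffer cells, 918 ± 99.4 in LSEC, 544 ± 158 in hepatocytes and 554 ± 114 in 1-day HSC. It passed against hepatocytes and 1-day HSC and missed the minimum difference against LSEC at 0.90 (adjusted p = 0.00075). Eif2ak2 encodes PKR, the kinase that halts translation on sensing double-stranded RNA. It read 709, 781 and 618 in Kupffer cells, 642, 500.5 and 372 in LSEC, 393, 321 and 119 in hepatocytes and 194 and 236 in 1-day HSC. Kupffer cells exceeded hepatocytes by 1.21 (adjusted p = 0.0013) and 1-day HSC by 1.40 (adjusted p = 0.0011), and the difference from LSEC did not pass (0.44, adjusted p = 0.17). The difference from hepatocytes was 0.84 without hepatocyte replicate 3 and 0.92 with the pooled median as the added constant, both under the minimum.

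Among the transcription factors Irf1 was the 1 of 4 called in Kupffer cells. Irf1 (probe set 10376060), an early factor of interferon and inflammatory responses, read 3424, 4304 and 3909 in Kupffer cells, 519, 615 and 459.9 in LSEC, 571, 752 and 526 in hepatocytes and 231 and 293 in 1-day HSC, with 185 at day 7 and 153 at day 14. It differed from hepatocytes by 2.51 (SE 0.137, adjusted p = 4.8e-09). Irf7, the factor that amplifies interferon production, read 4947, 3664 and 4149 in Kupffer cells, 2920.0, 2609 and 1926 in LSEC, 869, 564 and 459 in hepatocytes and 627 and 514 in 1-day HSC. Its values fell into a high pair of populations, Kupffer cells and LSEC, and a low pair. LSEC exceeded hepatocytes by 1.87 (adjusted p = 3.8e-06) and 1-day HSC by 1.96 (adjusted p = 1.9e-05), whereas Kupffer cells exceeded LSEC by 0.77, under the minimum difference (adjusted p = 0.005). Stat2 averaged 2110.2 ± 127 in Kupffer cells, 1135 ± 135 in LSEC, 844 ± 233 in hepatocytes and 415 ± 80.1 in 1-day HSC. Irf9, the DNA-binding partner of the STATs, averaged 1142 ± 81.8 in Kupffer cells, 1311 ± 132 in LSEC, 849 ± 216 in hepatocytes and 671 ± 147 in 1-day HSC, and none of its 6 differences reached 1.

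The OAS family encodes enzymes that make oligoadenylates on sensing double-stranded RNA, and these activate RNase L. Oasl1 is a relative without that activity. Oas2 (probe set 10533198) gave the largest difference of any member. It read 4113, 5134 and 5031 in Kupffer cells, 223, 182 and 158 in LSEC, 221, 195 and 210.5 in hepatocytes and 191 and 243 in 1-day HSC, with 159 at day 7 and 203 at day 14. The other 3 populations lay close to the median intensity of all probe sets, 224.5. Kupffer cells exceeded the nearest of them, 1-day HSC, by 4.01 (SE 0.127). Its neighbour on the chromosome, Oas3 (probe set 10533213), read 1422, 1221 and 1155 in Kupffer cells, 201, 196 and 194 in LSEC, 188, 172 and 251 in hepatocytes and 192 and 204 in 1-day HSC, with 176 at day 7 and 196 at day 14. The Kupffer cell arrays stood apart from all others, and the difference from hepatocytes was 2.24 (SE 0.105). Oas2 and Oas3 passed the filter only with their Kupffer cell arrays, so nothing is read from their calls.

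Oasl1 and Oasl2, also neighbours, were placed differently. Oasl1 (probe set 10524631), a repressor of Irf7 translation, read 2764, 2946 and 4219.8 in Kupffer cells, 853, 1064 and 910.2 in LSEC, 1149, 1041 and 829 in hepatocytes and 279.7 and 349.9 in 1-day HSC, with 243 at day 7 and 354 at day 14. It made 3 levels and was called both higher in Kupffer cells (1.63 above hepatocytes, adjusted p = 1.4e-06) and lower in 1-day HSC (LSEC exceeded it by 1.37, adjusted p = 5.7e-05). Oasl2 (probe set 10524621) read 3467, 2908 and 3379 in Kupffer cells, 3616, 3285 and 2619 in LSEC, 359, 304 and 368 in hepatocytes and 806 and 995 in 1-day HSC, with 602 at day 7 and 508 at day 14. Kupffer cells and LSEC overlapped (0.04, adjusted p = 0.79), and it was the 1 member called lower in hepatocytes, where the difference from 1-day HSC was -1.20 (SE 0.14, adjusted p = 9.6e-06). Oas1a averaged 771 ± 45.3 in Kupffer cells, 469.5 ± 60.1 in LSEC, 188 ± 22.0 in hepatocytes and 278 ± 26.1 in 1-day HSC. The difference was 0.63 for Kupffer cells minus LSEC (adjusted p = 9.8e-05), 0.61 for LSEC minus 1-day HSC (adjusted p = 0.00063) and -0.42 for hepatocytes minus 1-day HSC (adjusted p = 0.0048), so that neighbouring levels stood apart by less than the minimum size. Oas1a has near copies in the mouse, and another probe set was annotated to it together with Oas1g, so its level is uncertain.

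IFIT proteins bind viral RNA and block its translation, and the 3 measured genes had 3 patterns. Ifit2 (probe set 10462613) read 1564, 2829 and 3514 in Kupffer cells, 399, 342 and 181 in LSEC, 102, 124 and 91.0 in hepatocytes and 157 and 176 in 1-day HSC. Kupffer cells were apart from all others, by 2.77 from LSEC (SE 0.26, adjusted p = 1.3e-06), although their own arrays spread widely, at 2636 ± 989. Ifit3 read 2325, 2152 and 2754 in Kupffer cells, 2788, 1862 and 948 in LSEC, 668, 479.5 and 199 in hepatocytes and 243 and 271 in 1-day HSC. The LSEC arrays straddled those of Kupffer cells (0.47, adjusted p = 0.28) and exceeded hepatocytes by 1.86 (SE 0.36, adjusted p = 0.00054). Ifit1 averaged 979.9 ± 325 in Kupffer cells, 912 ± 181 in LSEC, 743 ± 327 in hepatocytes and 355 ± 77.8 in 1-day HSC. The 3 fresh populations overlapped, and only the differences of Kupffer cells and LSEC from 1-day HSC passed, at 1.25 (adjusted p = 0.0044) and 1.18 (adjusted p = 0.0097). Without HSC day 1 replicate 1 the LSEC difference was 0.999 (adjusted p = 0.086) and did not pass.

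**Figure D3:**
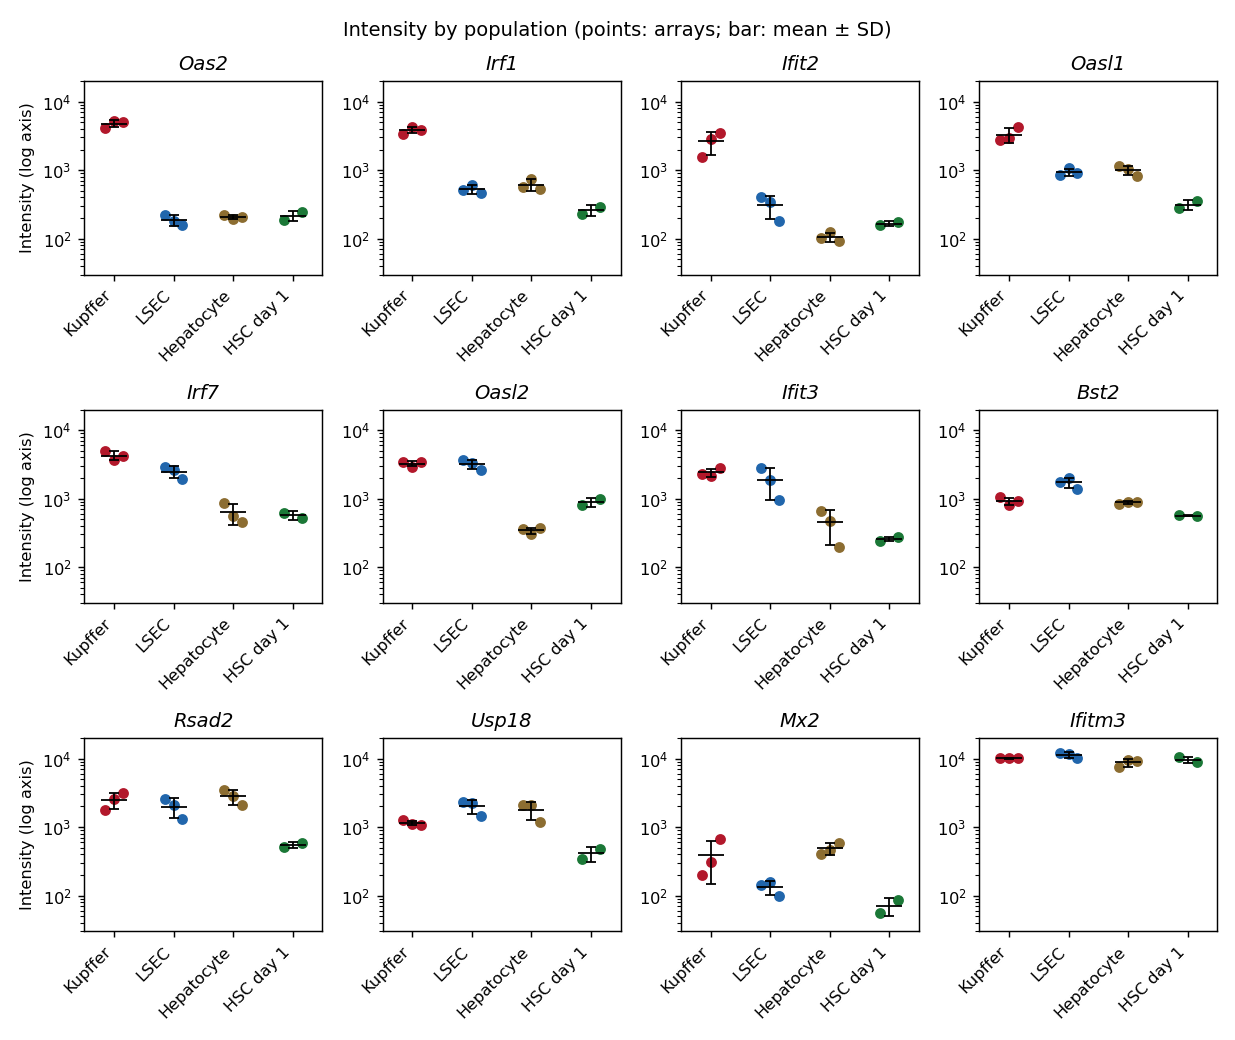
Intensity (log axis) of 12 members in Kupffer cells, LSEC, hepatocytes and 1-day HSC, with each array as a point and the mean ± SD as a bar. Oas2, Irf1 and Ifit2 are high in Kupffer cells, Irf7, Oasl2 and Ifit3 in Kupffer cells and LSEC, Rsad2 and Usp18 in all 3 fresh populations, and Ifitm3 lies between 7432 and 12163 throughout.

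The ubiquitin-like and ADP-ribosylation genes held 2 calls in Kupffer cells. Parp9 and Dtx3l, neighbouring genes whose products form a complex that modifies histones and viral proteins, were both called higher in Kupffer cells. Parp9 (probe set 10435457) read 1512, 1525 and 1303 in Kupffer cells, 672, 569.7 and 491 in LSEC, 569, 399 and 318 in hepatocytes and 335 and 368 in 1-day HSC, with 272 at day 7 and 332 at day 14. Its difference from LSEC was 1.22 (adjusted p = 2.1e-05). Dtx3l (probe set 10439268) read 1994, 1930.3 and 1696 in Kupffer cells, 1011, 789 and 618 in LSEC, 805, 683 and 467 in hepatocytes and 465 and 531 in 1-day HSC, with 303 at day 7 and 289 at day 14. Its difference from LSEC was 1.16 (adjusted p = 9.9e-05). Without LSEC replicate 3 the difference of Dtx3l was 0.999 (adjusted p = 0.00029), just short of the minimum. The ADP-ribosyltransferase gene Parp14 exceeded hepatocytes by 2.05 and 1-day HSC by 2.38 in Kupffer cells, but LSEC by 0.94. Trim25, the ubiquitin ligase that acts on RIG-I, averaged 3406 ± 73.1 in Kupffer cells, 1819 ± 16.4 in LSEC, 1531 ± 323 in hepatocytes and 1076 ± 85.1 in 1-day HSC.

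Usp18, the protease that removes ISG15 from proteins and also blunts signalling at the interferon receptor, ran another way. Usp18 (probe set 10541307) read 1253, 1101 and 1091 in Kupffer cells, 2362, 2269.7 and 1473 in LSEC, 2125, 2093 and 1171 in hepatocytes and 338 and 485 in 1-day HSC, with 472 at day 7 and 391 at day 14. It was called lower in 1-day HSC, which Kupffer cells exceeded by 1.33 (SE 0.248, adjusted p = 0.00045). The difference of Kupffer cells from LSEC was -0.76 (adjusted p = 0.0098) and from hepatocytes -0.57 (adjusted p = 0.038), both under the minimum size.

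GTPases of the GBP and MX families act against intracellular microbes and viruses. Gbp3 (probe set 10496580) read 1541, 1852 and 1827 in Kupffer cells, 607, 563 and 307 in LSEC, 247, 229 and 115 in hepatocytes and 221 and 202 in 1-day HSC, with 189 at day 7 and 198 at day 14. It differed from LSEC by 1.70 (SE 0.218, adjusted p = 2.1e-05). Mx1 (probe set 10441233), of which C57BL/6 mice carry a defective allele, read 402, 456 and 272 in Kupffer cells, 67.6, 62.4 and 66.8 in LSEC, 67.9, 62.5 and 62.6 in hepatocytes and 59.1 and 57.3 in 1-day HSC, with 55.3 at day 7 and 62.1 at day 14. Its Kupffer cell arrays lay far above all others, with a difference from LSEC of 1.61 (SE 0.123). Mx1 passed the filter through Kupffer cell arrays alone, so nothing is read from its call. Mx2 had its highest mean in hepatocytes. It read 197, 312 and 662 in Kupffer cells, 142, 160.3 and 98.6 in LSEC, 403, 468 and 594 in hepatocytes and 56.2 and 86.1 in 1-day HSC, and hepatocytes exceeded 1-day HSC by 1.89 (SE 0.308, adjusted p = 0.00016). The Kupffer cell arrays of Mx2 straddled those of hepatocytes (-0.38, adjusted p = 0.24). Kupffer cells exceeded LSEC by 1.02 (adjusted p = 0.006), but this was 0.63 without Kupffer cell replicate 3 and 0.90 without LSEC replicate 3, both under the minimum.

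Bst2 and Ifitm3 act at membranes. Bst2, or tetherin, which holds budding viruses to the cell, read 1042, 821 and 918 in Kupffer cells, 1764, 2001 and 1397 in LSEC, 838, 902 and 900.1 in hepatocytes and 578 and 555 in 1-day HSC. Every LSEC array lay above all others, but the difference from Kupffer cells was -0.83 (Kupffer cells minus LSEC, SE 0.119, adjusted p = 5.6e-05) and missed the minimum size. Ifitm3, which blocks viral entry from endosomes, averaged 10170.0 ± 172 in Kupffer cells, 11238 ± 1065 in LSEC, 8770.4 ± 1167 in hepatocytes and 9682 ± 1019 in 1-day HSC. Its 6 differences lay between -0.15 and 0.36, and the largest, LSEC over hepatocytes, had an adjusted p of 0.011.

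Rsad2 encodes viperin, which makes an antiviral nucleotide, and Cmpk2, the gene beside it, encodes a mitochondrial nucleotide kinase. Rsad2 (probe set 10399710) read 1784, 2562 and 3164 in Kupffer cells, 2546, 2113 and 1314 in LSEC, 3501, 2889 and 2076 in hepatocytes and 518 and 595 in 1-day HSC. The 3 fresh populations overlapped, and 1-day HSC lay below all of them, by 1.65 from LSEC, the nearest (SE 0.281, adjusted p = 0.00045). Cmpk2 was graded instead, at 1042 ± 32.2 in Kupffer cells, 633 ± 174 in LSEC, 389.7 ± 162 in hepatocytes and 224 ± 43.2 in 1-day HSC. Ifi35 and Xaf1, the remaining members, were close in Kupffer cells and LSEC (752 ± 21.2 and 741 ± 51.7 for Ifi35, 803 ± 75.2 and 828 ± 157 for Xaf1). Both passed in Kupffer cells against 1-day HSC, at 1.02 (adjusted p = 7.4e-06) for Ifi35 and 1.01 (adjusted p = 0.0094) for Xaf1. Without HSC day 1 replicate 1 these were 0.98 and 0.85 and no longer passed the minimum size.

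In pairs of populations, the members were higher in Kupffer cells than in 1-day HSC for 27 of 30 (11.7% of all genes), than in hepatocytes for 21 (13.7%) and than in LSEC for 12 (9.54%), and lower in Kupffer cells for 0 in each pair (12.9%, 12.0% and 10.3%). At an unadjusted p under 0.05 in limma, Kupffer cells were lower than 1-day HSC for 0 members (36.8% of all genes), than hepatocytes for 1, Usp18 (35.8%), and than LSEC for 2, Usp18 and Bst2 (39.8%). LSEC were higher than 1-day HSC for 13 members (5.24%) and lower for 0 (5.61%), also 0 at an unadjusted p under 0.05 in limma (24.0%). They were higher than hepatocytes for 7 members (12.5%) and lower for 1, Mx2 (10.0%). Hepatocytes were higher than 1-day HSC for 5 members (10.1%), namely Oasl1, Irf1, Usp18, Mx2 and Rsad2, and lower for 1, Oasl2 (12.3%). For Irf1 this difference was 1.01, and 0.88 without hepatocyte replicate 2 or without HSC day 1 replicate 1. The median log2 difference over the 30 members was 0.86 for Kupffer cells minus LSEC, 1.60 for Kupffer cells minus hepatocytes and 1.79 for Kupffer cells minus 1-day HSC, beside medians over all genes of -0.05, -0.02 and -0.02. For LSEC minus 1-day HSC it was 0.94, beside 0.03, and for hepatocytes minus 1-day HSC 0.32, beside -0.08.

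Within each fresh population 1 array read lowest more often than the others. Kupffer cell replicate 1 was the lowest of its group for 16 of 30 members, against 24.5% of all genes. Hepatocyte replicate 3 was the lowest of its group for 23 of 30 members, against 42.3% of all genes, and the median intensity over the members was 375 there, beside 646 and 531 in replicates 1 and 2. Its hepatocyte markers summed to 124622, the highest of the 3. LSEC replicate 3 was the lowest for 27 of 30 members, against 39.4% of all genes, with a member median of 675 beside 916 and 815. Its LSEC markers were also lowest, at 47229.8 beside 66089 and 61088. Without hepatocyte replicate 3, LSEC were higher than hepatocytes for 3 members in place of 7, hepatocytes were higher than 1-day HSC for 8 in place of 5, and 6 members in place of 3 were lower in 1-day HSC. The count of members higher in Kupffer cells lay between 10 and 12 whichever array was left out.

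In 1-day HSC, all arrays of the 3 fresh populations lay above both HSC arrays for 11 of the 30 members, against 10.9% of all genes. The members called lower in 1-day HSC, Rsad2, Usp18 and Oasl1, were higher in each fresh population. Hepatocyte, LSEC and Kupffer cell markers were read on these HSC arrays, as given above, and their part in the HSC levels was not tested.

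The second question was how the members changed as HSC stayed in culture. Arrays of day 7 and day 14 were set together against the 2 arrays of day 1, and the spread came from all 13 arrays. In this test 1 member rose, against 5.52% of all genes, and 1 fell, against 4.27%, shares close to the background. Rsad2 fell, reading 518 and 595 at day 1, 157 at day 7 and 181 at day 14, which is -1.34 on the log2 scale for long culture minus day 1 (SE 0.302, adjusted p = 0.003). Both later arrays were below both early ones. Eif2ak2 (probe set 10452980) rose, reading 194 and 236 at day 1, 548 at day 7 and 509 at day 14, or 1.04 on the same scale (SE 0.315, adjusted p = 0.017). Without HSC day 1 replicate 1 its difference was 0.94 (adjusted p = 0.089), and without the day 7 array 0.99 (adjusted p = 0.066), and neither passed.

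**Figure D4:**
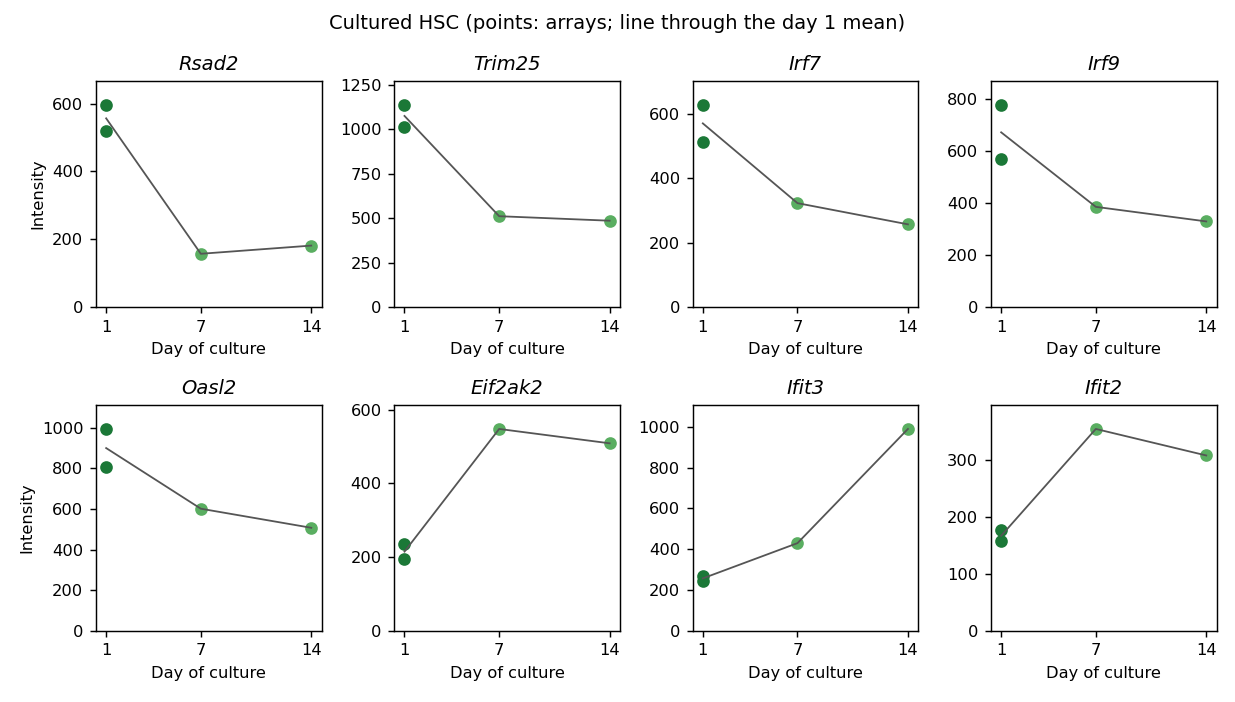
Intensity of 8 members in HSC at days 1, 7 and 14 of culture, with each array as a point and a line through the day 1 mean. At both later times Rsad2, Trim25, Irf7, Irf9 and Oasl2 lie below both day 1 arrays, and Eif2ak2, Ifit3 and Ifit2 above them.

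With no minimum difference 7 members were lower in long culture at adjusted p below 0.05 (25.2% of all genes) and 1 was higher (18.7%). Trim25 read 1016 and 1136 at day 1, 512 at day 7 and 486 at day 14 (-0.99, SE 0.146, adjusted p = 0.00016), just under the minimum size. The factors Irf7 and Irf9 and the gene Oasl2 differed by -0.81 (adjusted p = 0.017), -0.77 (adjusted p = 0.0066) and -0.62 (adjusted p = 0.0058). Irf1 and Dtx3l differed by -0.45 (adjusted p = 0.046) and -0.61 (adjusted p = 0.033). Both later arrays lay below both day 1 arrays for 19 of 30 members (41.3% of all genes) and above them for 3 (31.7%), namely Ifit2, Ifit3 and Eif2ak2. Ifit3 read 243 and 271 at day 1, 430.0 at day 7 and 990.2 at day 14, and its difference of 1.13 did not pass (SE 0.48, adjusted p = 0.075). Ifit2 read 157 and 176 at day 1, 354 at day 7 and 307 at day 14 (0.73, adjusted p = 0.077). The lower sums of hepatocyte, LSEC and Kupffer cell markers on the later arrays, given above, ran alongside these values, and their part was not tested.

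Other genes of the pathway were set beside the members, in lists also chosen with earlier results of these data known. Their shares are no independent support for those of the members. Of 39 tested further interferon-stimulated genes 18 were higher in Kupffer cells (6.53% of all genes), 4 were lower in hepatocytes, namely Phf11d, Lgals3bp, Sp100 and Ifi203 (2.72%), and 1, the chemokine gene Cxcl9, was lower in 1-day HSC (0.281%). Among them Ddx60, a helicase gene, averaged 2135 ± 190 in Kupffer cells and 163 ± 7.84 in LSEC, the nearest population (3.17). Ifi205 was higher in Kupffer cells than in 1-day HSC by 2.91 (adjusted p = 8.4e-10). Ddx60 and 3 others of the 18 (Ifi27l2a, Gbp5 and Slfn1) passed the filter through Kupffer cell arrays alone and had to be higher there. Slfn8, whose only other array above the filter was a 1-day HSC array at 314, also passed only with its Kupffer cell arrays. Nothing is read from these calls. Of 15 tested genes of interferon induction 5 were higher in Kupffer cells (6.53% of all genes). Among them were Tlr7, a receptor for single-stranded RNA (3.60), and its chaperone gene Unc93b1 (2.997, adjusted p = 2.7e-11), both against 1-day HSC. Another was the factor gene Irf5 (2.43 over hepatocytes, the nearest population, adjusted p = 2.9e-09). Tlr7 too had no array above the filter outside Kupffer cells, so nothing is read from its call. Sting1, the adaptor of DNA sensing, was lower in hepatocytes, at 156 ± 23.3 beside 1205 ± 294 in LSEC (LSEC over hepatocytes 2.41, adjusted p = 1.9e-08). Of 9 tested receptor and kinase genes 3 were higher in Kupffer cells. From the nearest population, Ifngr1 differed by 1.49 (1-day HSC), Il10rb by 1.31 and Tyk2 by 1.21 (both LSEC). The kinase genes Jak1 and Jak2 ran the other way between Kupffer cells and LSEC. Kupffer cells minus LSEC was -0.67 for Jak1 (limma adjusted p = 5.3e-05) and -0.93 for Jak2 (limma adjusted p = 2.5e-05), both under the minimum size. Of 10 negative regulators 3 were higher in Kupffer cells, including the phosphatase gene Ptpn6 (2.85 over hepatocytes), and Rnf125 was higher in hepatocytes (2.52 over LSEC).

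Among 4 interferon genes that passed the filter, Ifnb1, which encodes interferon beta, was called higher in Kupffer cells. It read 94.4, 410.1 and 961 there and 49.5 to 70.8 on the other 8 arrays of the 4 populations (1.60 above hepatocytes, SE 0.436, adjusted p = 0.0057). The Kupffer cell arrays did not overlap with the others, and the first lay far nearer to them than to the highest. Ifnb1 passed the filter on dim genes through 2 Kupffer cell arrays alone, so it had to be higher there, and nothing is read from its call.

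In the culture test 2 of the 39 further interferon-stimulated genes rose (5.52% of all genes) and 2 fell (4.27%), and 1 of 15 genes of interferon induction and 2 of 10 negative regulators fell. Samhd1, a nucleotide hydrolase gene that restricts viruses, read 747 and 839 at day 1, 2617 at day 7 and 2169 at day 14 (1.495, adjusted p = 0.00016), and Irgm1 rose by 1.14 (adjusted p = 0.017). Ifi203 and Phf11d fell by 1.24 and 1.02 on the log2 scale. Irf8 was the induction gene, and Irf2 and Ptpn2 were the regulators. Irf8 fell by 1.00 (adjusted p = 9.3e-05), Irf2 fell by 1.23 and the phosphatase gene Ptpn2 fell by 1.10 (adjusted p = 6.4e-06).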

How the data were processed

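Probe-set intensities of 13 Affymetrix mouse gene arrays were used as deposited, with 1 summarised intensity on a linear scale per probe set and array. Affymetrix Expression Console and MAS5 5.0 appear in the submitters' processing notes without a stated role; normalization, background correction and build were not stated. Array medians lay between 216.5 and 232.9. Of 25194 probe sets, 21181 carried 1 gene symbol, 1379 several and 2634 none in the platform annotation, and those with 1 symbol were used.

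Values were taken as log2(intensity + 82.7), 82.7 being the pooled 20th percentile. Genes above the pooled median of 224.5 on at least 2 arrays were tested with limma 3.58.1 in R 4.3.3 (lmFit, eBayes), two-sided, with Benjamini-Hochberg adjustment over all genes of a contrast. The population fit held 12081 genes on 11 arrays and the culture fit 12368 genes on 13 arrays, with day 7 and day 14 merged and the freshly sorted cells adding to the estimate of the spread. Calls needed an adjusted p below 0.05 and a log2 difference of at least 1. The fits were tested on simulated data. The number of arrays limits the precision.

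All measured members were accounted for, with every array's value for those called for a population or in culture. Of the other lists, counts were given and a choice of called genes named, not all of them by size. Members and lists were chosen with earlier results of these data known. Alternatives covered the added constant, the filter, quantile normalization, the probe set rule, a variance trend, the minimum difference, the replicate number as a block and leaving out each array. Same-numbered arrays showed little shared deviation (r between -0.11 and 0.11 over 15 pairs). With 2 or 3 arrays per group this cannot show whether they were paired.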

Additional observations from a re-analysis of the deposited data

How the results depend on the processing

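Over 1777 recomputed values of the 89 called member differences, 1722 kept direction and call, 55 kept direction but missed the threshold and 0 turned. The setting with no minimum difference repeats the main fit at a lower bar, so its 89 values could not miss. Averaging the probe sets of a gene changed the intensities of Irf1 alone among the members. The total of 1722 counts both settings. With the pooled median as the added constant, 0 members in place of 1 were lower in hepatocytes, LSEC were higher than hepatocytes for 3 in place of 7 and lower for 0 in place of 1, hepatocytes were lower than 1-day HSC for 0 in place of 1, and 0 rose and 0 fell in culture in place of 1 each. A larger constant shrinks every log2 difference, and Eif2ak2 and Rsad2 then stood at 0.78 and -0.99. With a constant of 16, 2 members fell in culture. With the filter at the 75th percentile of all intensities, 82 of the 89 differences were tested, and LSEC were lower than hepatocytes for 0: Mx2, the member concerned, read at most 662, under that percentile (689). After quantile normalization LSEC were higher than hepatocytes for 4 in place of 7. Oas1a, Gbp3 and Parp14 then stood at 0.999, 0.997 and 0.989, just under the minimum of 1, with limma adjusted p still below 0.05. Why these values moved was not tested. With no minimum difference, 18 members in place of 11 were higher in Kupffer cells, 1 was higher in LSEC, 2 were lower in hepatocytes and 10 in place of 3 were lower in 1-day HSC. By pair, Kupffer cells were then higher than LSEC for 19 and lower for 2, and lower than hepatocytes for 1. LSEC were higher than hepatocytes for 17 and lower for 2, and higher than 1-day HSC for 23. Hepatocytes were higher than 1-day HSC for 11 and lower for 2, and 7 members fell in culture (25.2% of all genes). Dropping the minimum calls more of all genes too. For the populations their shares under this rule were not computed, so nothing is read from these population counts. Leaving out 1 array at a time, the members lower in 1-day HSC numbered 3 to 6, those higher in LSEC than in hepatocytes 3 to 8, those higher in hepatocytes than in 1-day HSC 4 to 8, culture rises 0 to 2 and culture falls 1 to 2. The extremes of 6, 3 and 8 came without hepatocyte replicate 3, and the rise count was 0 without HSC day 1 replicate 1. With the replicate number as a block, 11 members were higher in Kupffer cells, 4 were lower in 1-day HSC and 16 were higher in LSEC than in 1-day HSC, and all 87 called population differences stayed called. Whether same-numbered arrays shared an animal or a preparation is not stated, and the correlations of their deviations cannot settle it. No paired analysis was possible for culture because the day 7 and day 14 arrays carry no replicate number. Dim genes such as Mx1, near 60 outside Kupffer cells, have understated differences.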

Other observations

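Several members lie beside each other on the chromosome. In the RefSeq gene order no protein-coding gene separates Oas2 from Oas3, Oasl2 from Oasl1, Rsad2 from Cmpk2, Ifit2 from Ifit3, Parp14 from Dtx3l or Dtx3l from Parp9. Oas2 and Oas3, and Dtx3l and Parp9, were called higher in Kupffer cells in both genes of the pair. Oas2 and Oas3 passed the filter only with their Kupffer cell arrays, so nothing is read from that pair. Of Ifit2 and Ifit3, of Oasl1 and Oasl2, and of Parp14 and Dtx3l, 1 gene of each pair was called higher in Kupffer cells. Rsad2 was called lower in 1-day HSC, and Cmpk2, with 1042 ± 32.2 in Kupffer cells, 633 ± 174 in LSEC, 389.7 ± 162 in hepatocytes and 224 ± 43.2 in 1-day HSC (SD, n = 3, 3, 3 and 2), was not. Differences between the genes of a pair were not tested.

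The Kupffer cell arrays differed among themselves in Ifnb1, with 94.4, 410.1 and 961 in replicates 1, 2 and 3. After these values were seen, genes with the same ranking of the 3 arrays were counted. They were 10 of 30 members, among them Ifit2 (1564, 2829 and 3514), Rsad2 (1784, 2562 and 3164) and Mx2 (197, 312 and 662), or 33.3%, against 13% of all tested genes. Others of the 10 were nearly flat, such as Ifitm3 (10035.5, 10111 and 10364) and Trim25 (3356, 3372 and 3490). Most members ranked the arrays otherwise, such as Irf7 (4947, 3664 and 4149) and Dhx58 (1415, 1367 and 1228). Of the 39 further interferon-stimulated genes 7 had the ranking of Ifnb1, or 17.9%, among them the chemokine gene Cxcl10 (4737, 8124 and 11520.1). With 3 arrays this is a description with no test.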
